A study of Capra hircus and Bos taurus with 7 samples.

Results

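The microRNA (miRNA) miR-885 was followed through vesicle RNA from 7 milk powder libraries. It is 1 of 364 mature miRNAs listed in every library, and was matched by its name, bta-miR-885, which is bovine and names no arm of the hairpin; miR-2885, whose name holds the same digits, is another miRNA and was left out. It was selected on its CPM and rank in these same libraries, with earlier results known, so its values are given as a description. The libraries comprised 3 from goat (Capra hircus) powder labelled whole and 3 from goat powder labelled skimmed, each lettered A to C, and 1 from a commercial bovine (Bos taurus) powder. All powders had been reconstituted in warm water, and extracellular vesicles, the membrane-bound particles that cells release, had been separated by size exclusion chromatography before small RNA was sequenced. The labels do not say whether the letters stand for separate packs or repeat isolations, nor whether both goat powders came from the same milk, so any spread or p-value measures only the variation between these libraries, which may be technical.

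A miRNA is a short RNA that, loaded into an Argonaute protein, represses messenger RNAs that pair with its seed near the 5′ end. In human the miR-885 gene lies inside an intron of ATP2B2, which encodes the plasma membrane calcium pump PMCA2. This pump moves calcium into milk across the apical membrane of the lactating mammary epithelium. In human serum, miR-885 is better known as a miRNA that is raised in liver disease.

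The libraries held between 5675489 and 11963849 estimated miRNA reads. Epithelial miRNAs, led by miR-200c, took 9.85% to 11.4% of the reads of the goat libraries and 10.6% of the bovine reads. The liver marker miR-122 was at or near 0 in 6 of 7 libraries, with 0 reads in the bovine library, 1, 0 and 1 reads in whole A, B and C, and 0 and 2 reads in skimmed B and C; skimmed A held 463 reads.

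miR-885 was well covered in every library. Whole A held 29603 reads of it, whole B 56393 and whole C 46418. In the skimmed libraries A, B and C there were 26284, 20808 and 20257 reads. The bovine library held 40699 from the smallest total of all. At these depths counting error alone amounts to a coefficient of variation (CV) of 0.421% to 0.703% per library. The estimated counts of miR-885 were not whole in any library.

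Scaled to the total of each library, miR-885 stood at 4511, 5560 and 3880 counts-per-million (CPM) in whole A, B and C. In skimmed A, B and C it stood at 2831, 2512 and 2547 CPM. The bovine value was 7171 CPM, with an exact 95% Poisson interval of 7101 to 7241 CPM for counting error only. Every skimmed library lay below every whole library, and the bovine library lay above all 6 goat libraries. Ordered by level, the intervals of neighbouring libraries overlapped for skimmed B (2478 to 2546 CPM) and skimmed C (2512 to 2582 CPM) and for no other neighbouring pair.

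**Figure D1:**
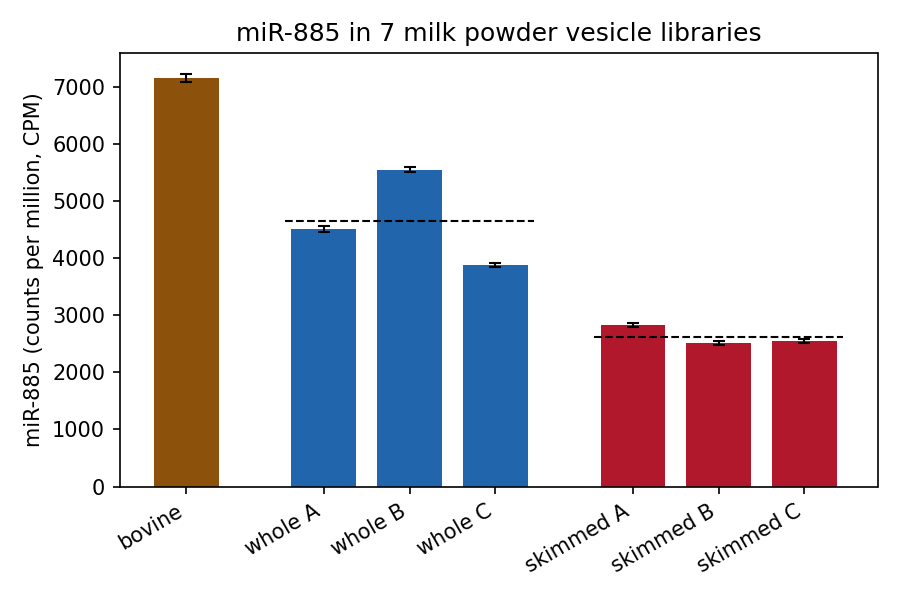
Level of miR-885 in CPM (vertical axis, from 0) in each library (horizontal axis), with brown for bovine, blue for whole goat and red for skimmed goat powder. Bars are single libraries, caps are exact 95% Poisson intervals and dashed lines are means of 3 libraries; the whole libraries span 3880 to 5560 CPM, above the skimmed libraries at 2512 to 2831 CPM and below the bovine library at 7171 CPM.

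By rank miR-885 was in the upper part of the list. It held place 37 in whole A, 33 in whole B and 38 in whole C, and places 45, 47 and 46 in skimmed A, B and C. In the bovine library it came 27th. By its mean over the 6 goat libraries, 3640 ± 1235 CPM (SD, n = 6), it was 40th. Without whole B, the library with the highest goat level, the place by the goat mean was 46. The detected miRNAs numbered 261 to 288 per library, so miR-885 stood within the top 10.2% to 18.0% of them. Its share of all miRNA reads ran from 0.251% in skimmed B to 0.717% in the bovine library.

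The first comparison set skimmed against whole goat powder. Over 3 libraries each, the mean level of miR-885 was 4650 CPM with an SD of 849 in whole powder and 2630 CPM with an SD of 175 in skimmed powder, a level 1.77 times as high in whole. The difference of 2021 CPM was 2.38 times the SD of the whole libraries and 11.5 times that of the skimmed ones. The lowest whole library was 1.37 times the highest skimmed one. CPM is a share of a library's total, so a lower value need not mean that less miR-885 was present. Whether single vesicles held less of it, fewer vesicles carried it or other miRNAs rose cannot be told apart in such bulk RNA.

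In edgeR's quasi-likelihood fit over 209 miRNAs the log2 fold change of miR-885, skimmed over whole, was -0.72 ± 0.15 (SE), against a median of 0.03 over all miRNAs tested. Its edgeR adjusted p (Benjamini-Hochberg) was 0.076, so it did not pass the threshold of 0.05. edgeR called 1 miRNA in either direction (0.478% of those tested) and 0 lower in skimmed (0%), where 10 were lower at an unadjusted p under 0.05. DESeq2's Wald test did call miR-885, with an adjusted p of 0.00064, among 22 calls (9.05% of 243 miRNAs), 12 of them lower in skimmed (4.94%). edgeR called it with no filter on low counts (adjusted p = 0.028) and when rows with a goat mean under 100 CPM were left out (adjusted p = 0.029). Skimmed libraries all lay below whole libraries for 22 of the 209 miRNAs (10.5%) and all above them for 20 (9.57%), so the lack of overlap at miR-885 is shared with many others. Since miR-885 was picked with this contrast known, nothing is read from these values.

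Ratios within a library do not depend on how libraries are scaled, so miR-885 was set against 5 abundant miRNAs. They do depend on the reference, whose own log2 fold change, skimmed over whole, was 0.38 ± 0.15 (SE) for let-7a-5p, 0.33 ± 0.12 for miR-200c, 0.14 ± 0.19 for miR-148a, -0.28 ± 0.16 for miR-21-5p and -0.57 ± 0.15 for miR-30a-5p. None of the 5 passed the threshold in edgeR. For every 1000 reads of let-7a-5p, the most abundant miRNA of these powders, whole A, B and C held 35.6, 44.9 and 37.8 reads of miR-885. The skimmed libraries held 17.8, 18.5 and 18.8, and the bovine library 54.2. Whole and skimmed did not overlap, and the skimmed values were close together at 18.4 ± 0.521 (SD, n = 3).

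Against miR-200c, a miRNA of epithelial cells, the groups were also apart. The whole libraries held 133, 159 and 114 reads of miR-885 per 1000 and the skimmed libraries 70.9, 56.8 and 68.5. The bovine library, at 129.5 per 1000, lay inside the range of whole powder. It stood above the skimmed libraries and whole C only.

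The other 3 references, 2 of them with fold changes below 0, gave overlapping goat groups. Per 1000 reads of miR-21-5p, an abundant miRNA of many cell types, there were 53.9 to 92.9 reads of miR-885 in whole and 40.9 to 66.1 in skimmed. For miR-30a-5p the ranges were 46.7 to 86.3 and 48.7 to 71.1, with a log2 ratio of group means of -0.18. For miR-148a, a miRNA abundant in milk, they were 60.0 to 126.8 and 41.1 to 64.3. Whole C was the lowest whole library in all 3, and without it the whole libraries held at least 65.5, 64.1 and 99.1 reads, which parted the groups for miR-148a. The reads of let-7a-5p above, of miR-148a and of miR-26a further on could have been shared out between near-identical names. This makes their values uncertain. The bovine library held 137.5 reads per 1000 of miR-21-5p, 79.1 of miR-30a-5p and 253.1 of miR-148a. It thus exceeded every goat library against let-7a-5p, miR-21-5p and miR-148a, and all but whole B against miR-30a-5p.

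**Figure D2:**
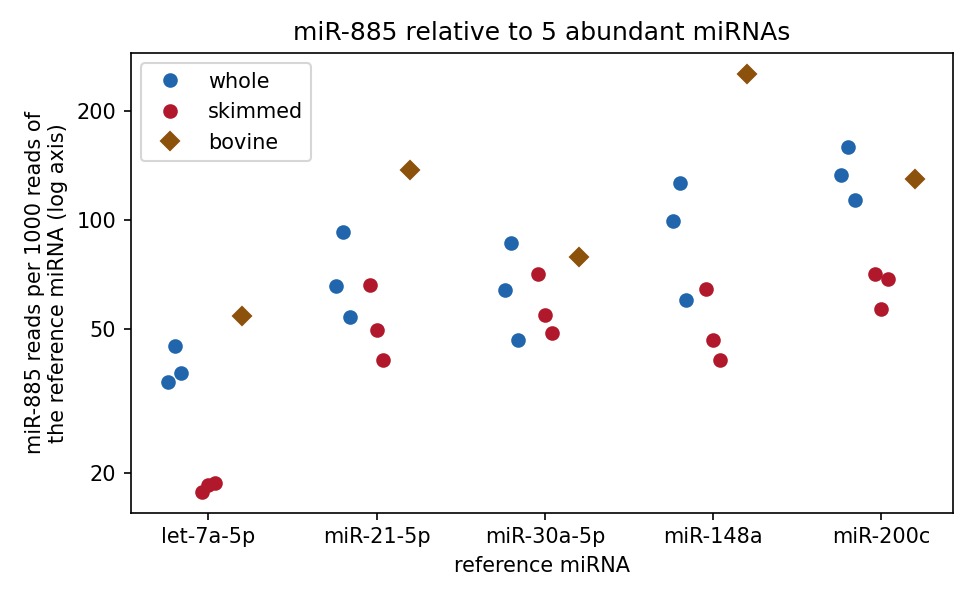
Reads of miR-885 per 1000 reads of each of 5 reference miRNAs (vertical axis, log scale), with 1 point per library, circles for whole (blue) and skimmed (red) goat and diamonds for bovine (brown). Whole and skimmed are apart against let-7a-5p and miR-200c and overlap against the other 3 references.

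The miRNAs of like abundance gave the background. The 10 next above and the 10 next below miR-885 in mean goat CPM spanned 2170 to 6305 CPM, and all 20 were tested. Their log2 fold changes ran from -0.72 to 0.87 with a median of 0.06. Of the 20, 8 were below 0 and 0 were lower than miR-885; the nearest was miR-125a, at -0.72 ± 0.21 (SE). Over the 126 miRNAs with a goat mean of at least 100 CPM, miR-885 had the 8th lowest fold change. Of the 63 other miRNAs with a goat mean of at least 1000 CPM, skimmed lay wholly below whole for 11 and wholly above it for 11. Skimmed lay wholly below whole for 5 of the 20 neighbours and wholly above it for 4, against 10.5% and 9.57% of all miRNAs tested. One of them passed the threshold in edgeR, miR-25, a member of the miR-106b-25 cluster inside MCM7, which rose from 2456 ± 248 CPM in whole powder to 4214 ± 572 CPM in skimmed powder (SD, n = 3 each), with an edgeR adjusted p of 0.035 and a log2 fold change of 0.87 ± 0.13. That call was lost with library totals, DESeq2 size factors, upper-quartile scaling, the replicate block and the table without let-7a-5p. Each of these settings called 0 miRNAs. The call was also lost whenever whole A, B or C or skimmed B or C was left out. DESeq2's Wald test called miR-25 too (adjusted p = 0.00011).

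The 3 miRNAs next above miR-885 were miR-151-5p, miR-125a and miR-320a. Of these, the whole and skimmed means of miR-151-5p were 3662 and 3683 CPM, and those of miR-320a, a miRNA made without Drosha, were 4191 ± 593 and 4423 ± 1435 CPM (SD, n = 3 each). The level of miR-125a was 4795 ± 1057 CPM in whole and 2706 ± 572 in skimmed. Next below came miR-652, at 3731 ± 435 and 3494 ± 97.0 CPM, miR-342, an intronic miRNA of EVL, at 3659 ± 785 and 3431 ± 820 CPM, and miR-151-3p, at 3034 ± 71.7 and 3912 ± 321. None of these 6 passed the threshold in edgeR (adjusted p 0.12 to 1.00), and DESeq2's Wald test called miR-125a lower (adjusted p = 0.0083) and miR-151-3p higher (0.045) in skimmed.

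The spread of miR-885 was unlike in the goat powders. Its CV was 18.2% over the whole libraries, where 14 of the 20 neighbours had a lower one (median 10.1%). Over the skimmed libraries its CV was 6.65%, and 3 of the 20 had a lower one (median 13.8%). The SE of its fold change, 0.15, was close to the neighbours' median of 0.15. These CVs rest on 3 libraries each, and the difference between them was not tested.

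**Figure D3:**
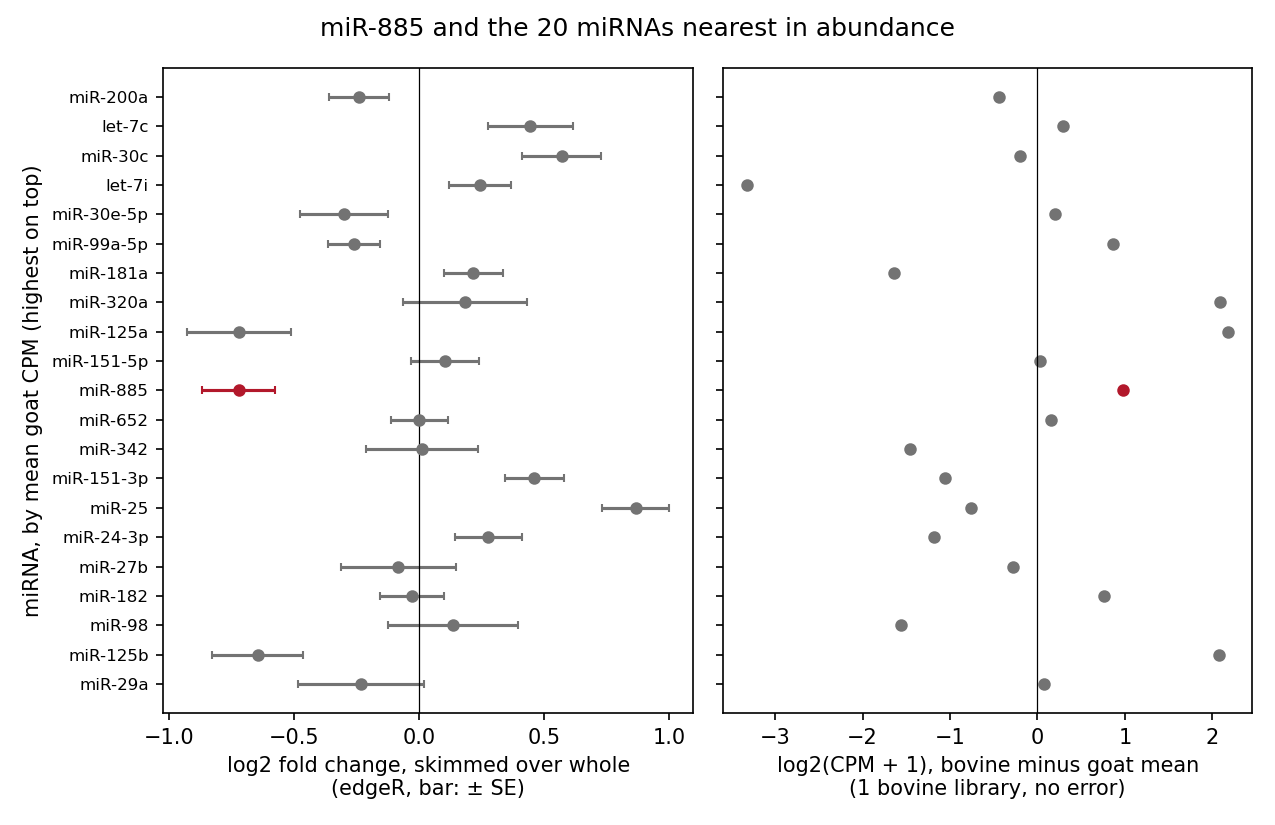
For miR-885 (red) and the 20 miRNAs nearest to it in mean goat CPM (grey, highest on top), the left panel gives the edgeR log2 fold change of skimmed over whole with its SE, and the right panel the log2(CPM + 1) difference of the bovine library from the goat mean. miR-885 has the lowest fold change of the 21, with miR-125a beside it at -0.72, and 3 of the 20 have a higher bovine ratio.

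The second comparison set the bovine library beside the goat libraries, with no test, since species, product and library cannot be told apart in 1 library. The bovine level of miR-885 was 1.97 times the goat mean (1.95 to 1.99 by the exact Poisson interval of the bovine count). It was 1.54 times the mean of whole and 2.73 times the mean of skimmed powder, and 1.29 times the highest goat library. The distance from the mean of whole powder was 2.97 times the SD of the whole libraries.

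Most miRNAs lay the other way. Over 126 miRNAs with a goat mean of at least 100 CPM, the median log2 ratio of bovine to goat was -0.78, and miR-885 was 15th from the top at 0.98. The bovine library lay above the goat range for 31 of the 126 (24.6%) and below it for 70 (55.6%). Among the 20 neighbours the ratio of bovine to goat ran from 0.0997 for let-7i to 4.54 for miR-125a, with a median of 0.942. In 5 of them bovine lay above the goat range, in 8 below and in 7 within it, and 3 (miR-320a, miR-125a and miR-125b) had a higher ratio than miR-885. The ratio depended on the scaling: it was 1.42 (log2) with TMM and 2.07 with DESeq2 size factors over the 7 libraries, which moved the median of the 126 miRNAs to -0.34 and 0.31. A scaling shifts all miRNAs nearly alike, so the distance of miR-885 from that median, 1.76, is the same with each of the 3 by construction.

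Both contrasts together gave an order of bovine above every whole library and every whole library above every skimmed library. Among the 20 neighbours in abundance, 3 had this order. Over the 126 miRNAs it was found for 7 (5.56%). With miR-885 these were miR-30a-5p, miR-186, miR-99a-5p, miR-125a, miR-125b and miR-197, named here because they make up the count. Their log2 fold changes of skimmed over whole ran from -1.003 ± 0.50 (SE) for miR-197, below the -0.72 of miR-885, to -0.04 ± 0.10 for miR-186, and edgeR called none of the 7.

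**Figure D4:**
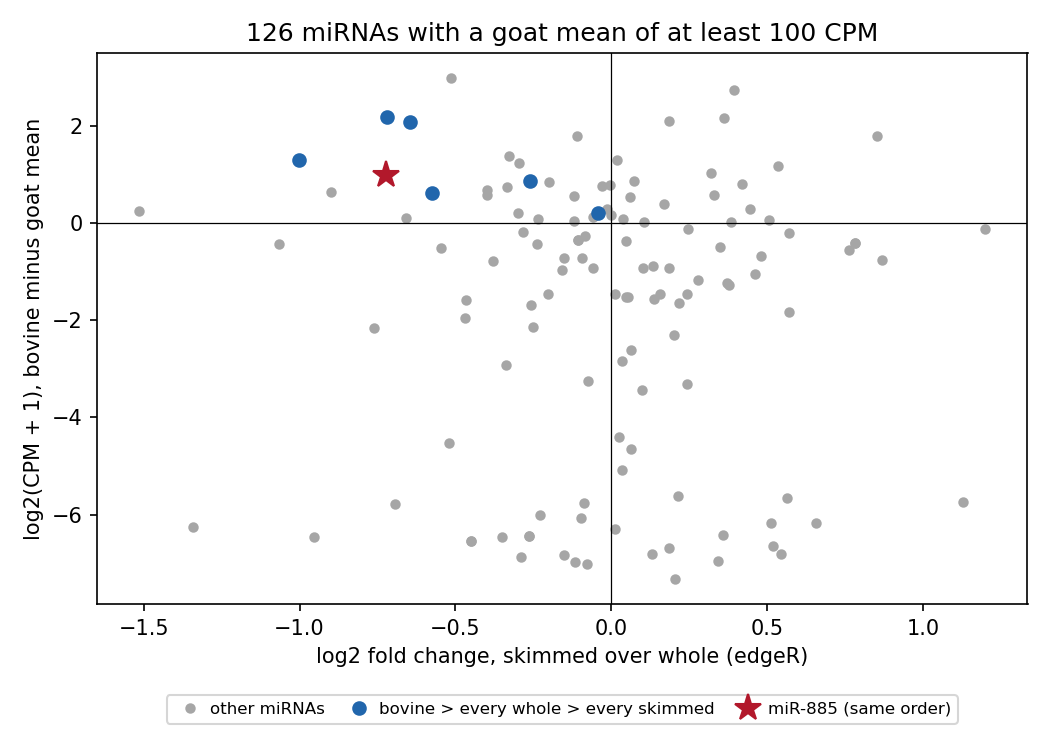
The 126 miRNAs with a goat mean of at least 100 CPM, by edgeR log2 fold change of skimmed over whole (horizontal) and log2(CPM + 1) difference of the bovine library from the goat mean (vertical). The star is miR-885, at -0.72 and 0.98, and blue points are the other 6 miRNAs with bovine above every whole and every whole above every skimmed library.

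The profile of miR-885 over the 7 libraries was most like that of miR-99a-5p, by Pearson correlation of log2(CPM + 1) among the 124 others that averaged 100 CPM or more (r = 0.95, 7 points). Then came miR-2898 (0.94), miR-125a (0.94), miR-125b (0.92) and miR-197 (0.91). These are descriptions over few points that share library totals, and the single bovine library weighs on each. Over the 6 goat libraries alone r was 0.98 for miR-99a-5p, 0.97 for miR-125a, 0.94 for miR-125b and 0.89 for miR-2898, and miR-328 (0.86) took the fifth place.

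The miRNAs named by that measure differed in how far they moved. miR-99a-5p, which shares a gene cluster with let-7c and 1 copy of miR-125b, was at 4929, 5387 and 4756 CPM in whole A, B and C. It was at 4028, 3716 and 4039 CPM in the skimmed libraries and at 8118 CPM in bovine. Its goat groups did not overlap, and they were nearer to each other than those of miR-885, with an edgeR adjusted p of 0.38 for a log2 fold change of -0.26 ± 0.11.

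miR-125a and miR-125b, relatives of the nematode lin-4, were farther from goat in the bovine library. miR-125a stood at 4687, 5902 and 3797 CPM in the whole libraries, 3354, 2494 and 2271 CPM in the skimmed libraries and 17047 CPM in bovine powder. miR-125b stood at 2558, 3516 and 2222 CPM in the whole libraries, 1605, 1893 and 1455 CPM in the skimmed libraries and 9309 CPM in bovine powder. As for miR-885, whole B was the highest goat library for both. Reads that match both names could have been split by the deposited counting, so their values are uncertain.

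miR-2898 ran from 1508 to 1944 CPM in whole and from 1086 to 1549 CPM in skimmed, which overlapped, with 2470 CPM in bovine. miR-197 was the least abundant of the 5, at 197, 522 and 339 CPM in whole and 172, 148 and 170 CPM in skimmed, with 635 CPM in bovine. The means of miR-328 were 205 ± 98.7 CPM for whole, 67.2 ± 34.3 CPM for skimmed (SD, n = 3 each) and 162 CPM for bovine. edgeR called none of the 6 (adjusted p 0.12 to 0.64), and DESeq2's Wald test called miR-125a (adjusted p = 0.0083) and miR-125b (0.029) lower in skimmed.

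**Figure D5:**
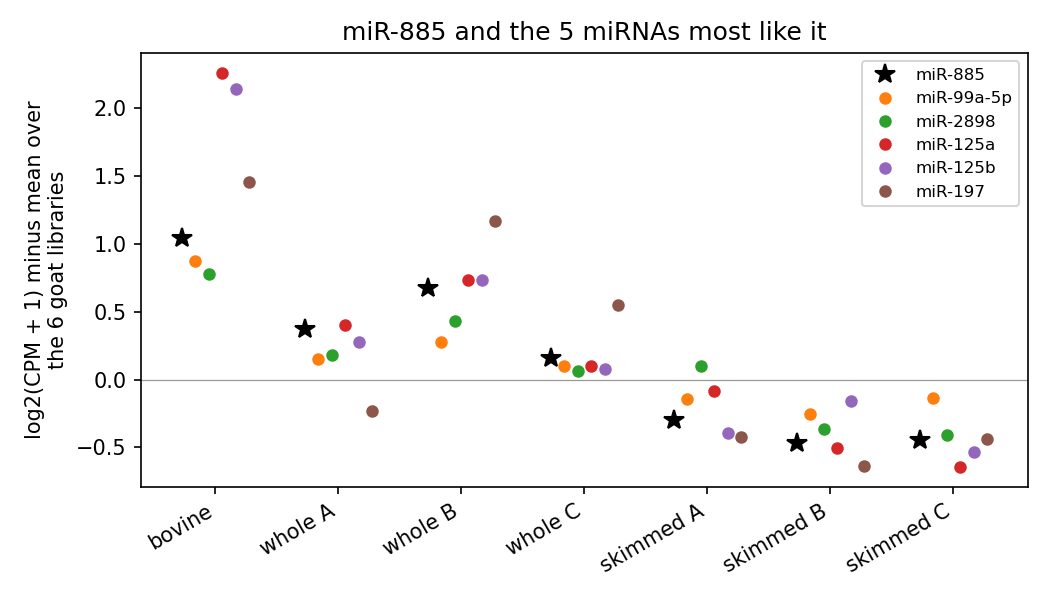
Log2(CPM + 1) of miR-885 (black stars) and of the 5 miRNAs most like it (coloured circles) in each library, as the difference from the mean of their own 6 goat values; points are single libraries. For all 6 miRNAs the bovine library is the highest of the 7 and whole B the highest goat library.

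Lists of miRNAs were set beside miR-885 for liver, for epithelium, where the product of its human host gene works, and for intronic miRNAs. Of 4 listed liver-enriched miRNAs, 3 were tested and 0 passed in edgeR, with a median log2 fold change of 0.20. The most abundant, miR-101, stood at 1180 ± 203 CPM in whole, 804 ± 310 in skimmed (SD, n = 3 each) and 256 CPM in bovine. miR-194 stood at 371 ± 58.0 and 405 ± 257 CPM with 77.9 CPM in bovine, and miR-192 at 121 ± 50.9 and 162 ± 69.9 CPM with 0.969 CPM in bovine. All 3 lay below the goat range in the bovine library, as did 101 of the 209 miRNAs tested (48.3%), while miR-885 lay above it, as did 42 (20.1%). The list took 0.149% to 0.185% of whole, 0.102% to 0.165% of skimmed and 0.0335% of bovine reads, in each of these groups less than the share of miR-885 alone.

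Epithelial miRNAs had 0 of 7 tested members past the threshold in edgeR, 4 of them below 0, with a median log2 fold change of -0.09. The 3 leading members were miR-200c, with whole and skimmed means of 34336 ± 566 and 40434 ± 3549 CPM (SD, n = 3 each), miR-200b, at 31822 ± 1676 and 30627 ± 628, and miR-375, at 25161 ± 1291 and 30579 ± 2844. In the bovine library 2 of the 7 lay above the goat range and 3 below it, against 20.1% and 48.3% of all tested. The bovine values of the leading 3 were 55374, 32904 and 11535 CPM.

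As miR-885 is intronic in human, 33 names of intronic miRNAs with a protein-coding host were set beside it. Of 28 tested, miR-25 rose in skimmed powder in edgeR, 0 fell and 15 were below 0, with a median log2 fold change of -0.03 against 0.03 over all 209 tested, of which 96 were below 0. The leading members were miR-26a (CTDSP genes), at 39264 ± 4797 CPM in whole against 34302 ± 2498 in skimmed, miR-191 (DALRD3), at 14485 ± 1323 and 13431 ± 642, and miR-26b, at 9302 ± 1025 and 8064 ± 802 (SD, n = 3 each). The bovine library lay above the goat range for 7 of the 28 and below it for 13, near those same shares of all miRNAs tested.

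Markers of other cells were measured beside miR-885. Leukocyte miRNAs took 2.16% to 2.55% of whole, 2.27% to 2.52% of skimmed and 0.0933% of bovine reads, with 5 of 6 tested members below the goat range in bovine, against 48.3% of all miRNAs tested. The leading member, miR-146b, stood at 21103 ± 2130 CPM in whole, 20677 ± 1213 in skimmed (SD, n = 3 each) and 828 CPM in bovine. miR-155 stood at 1352 ± 56.5, 1453 ± 279 and 7.75 CPM and the myeloid miR-223 at 1174 ± 32.2, 1610 ± 110 and 11.5 CPM in the same order. Of the 6 members tested, 2 had a log2 fold change below 0. These were miR-142-5p, at -0.20 ± 0.55 (SE), and the low-count miR-150, at -7.93 ± 2.21. miR-150 held 117, 74 and 187 reads in whole A, B and C and 0, 1 and 0 in skimmed A, B and C. edgeR did not call it (adjusted p = 0.12).

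Stromal and endothelial miRNAs, led by miR-143 with means of 1510 ± 36.7 and 2038 ± 387 CPM, took 0.149% to 0.165% of whole, 0.169% to 0.246% of skimmed and 0.00172% of bovine reads. The endothelial miR-126-3p was at 0 in whole and bovine powder and in skimmed C, with 188 and 361 reads in skimmed A and B. miR-145 stood at 27.5 CPM in the goat mean but was uneven between libraries. It held 0, 1029 and 3 reads in whole A, B and C and 3, 389.5 and 129 in skimmed A, B and C. The erythroid miR-486 averaged 36.7 CPM over the goat libraries and was at 0.176 CPM in bovine, the nerve miR-128 675 and 246 CPM, and the nerve miR-9 21.3 and 0.117 CPM. miR-9 was uneven too, with 0, 1.33 and 834.5 reads in whole A, B and C and 120, 234 and 134.7 in skimmed A, B and C. The muscle miR-1 stood at 9.31 ± 15.4 CPM in whole, 70.8 ± 43.4 in skimmed (SD, n = 3 each) and 0.352 CPM in bovine, with every skimmed library above every whole one (log2 fold change 3.06 ± 1.82 SE, not called by edgeR, adjusted p = 0.64). None of these lists, with 6 leukocyte, 2 stromal and endothelial, 1 erythroid, 1 muscle and 2 nerve members tested, had a member past the threshold in edgeR. The part of these cells in the level of miR-885 was not tested.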

How the data were processed

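Per the file headers, the deposited values are counts for mature miRNAs. They were read as estimated counts because many values are fractions, and the deposited estimated counts are not normalized. Not given in the sources used here are the aligner, the counter, the miRNA reference, the genome build and the handling of goat reads that differ from bovine sequences. Libraries were grouped by title. CPM was computed over all 364 miRNAs of a library. For skimmed against whole, counts were rounded and fitted with edgeR 4.0.16 (R 4.3.3; default low-count filter, TMM factors 0.928 to 1.067, quasi-likelihood test, Benjamini-Hochberg adjustment, threshold 0.05); an SE is the log2 fold change over the square root of F. The fit was run on simulated data as a check of the code, and nothing about miR-885 is drawn from that. Alternatives were DESeq2 1.42.0 (all rows, its own filter), limma-voom 3.58.1, other scalings and filters, a replicate block and leaving out each library. Intervals are exact Poisson at 95%; they cover counting error only, as the PCR reads carry no molecular identifiers and are not independent.

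The member and the lists were chosen with earlier results of these data known. Named miRNAs are miR-885, its 3 neighbours on each side, the 5 most like it (over 7 and over 6 libraries), 5 reference miRNAs, the 3 leading members of each list (liver-enriched, epithelial, intronic, leukocyte, erythroid, stromal and endothelial, muscle, nerve, and miR-122 for liver), members past the threshold, and those that make up a small count. List names were matched exactly, with any arm.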

Additional observations from a re-analysis of the deposited data

How the results depend on the processing

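The log2 fold change of miR-885 kept its direction under all 15 alternatives (-0.87 with upper-quartile scaling to -0.61 without whole B), with adjusted p from 0.00064 to 0.28. It passed the threshold under 3: DESeq2's Wald test (-0.77), no filter on low counts (-0.79) and a mean of at least 100 CPM (-0.74). The cause was not tested. Upper-quartile scaling moved the median of all tested miRNAs from 0.03 to -0.11. The number of miRNAs called went from 1 to 22 with DESeq2, 2 with no filter, 4 over miRNAs of at least 100 CPM, and 0 with library totals, DESeq2 size factors, upper-quartile scaling, the replicate block or the table without let-7a-5p. Over the fits without 1 library it was 0 to 1, at 0 without any of whole A, B or C or skimmed B or C. With the letter as a replicate block the log2 fold change was -0.72 (adjusted p = 0.11). Deviations of same-lettered libraries correlated at -0.09, 0.07 and 0.37 across 126 miRNAs, and those of libraries with different letters at -0.26 to 0.16. Deviations from a group mean are tied to each other, so these values cannot settle whether the letters are pairs. The main fit did not take the letters as pairs.

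The bovine log2 ratio, 0.98, stayed above 0 under all 12 alternatives (0.62 to 2.07) and moved by more than the spread of the goat libraries only with DESeq2 size factors (2.07). The place by goat mean was 39 to 46 with 1 library left out. Of the 5 miRNAs most like miR-885, 4 were shared with the goat libraries alone and 4 with Spearman's measure. Chosen after seeing the data, TMM, DESeq2 or upper-quartile scaling of the goat libraries left whole and skimmed apart, by 0.33 to 0.45 on the log2 scale. Depth did not limit miR-885, with at least 20257 reads per library.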
